A study of Mus musculus with 23 samples.

Results

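The insulin-like growth factor (IGF) family was followed in mouse lung through 9 genes. They were the ligand genes Igf1 and Igf2, the receptor gene Igf1r, and the binding protein genes Igfbp2, Igfbp3, Igfbp4, Igfbp5, Igfbp6 and Igfbp7. The genes were taken by name from a table of 41388 genes, with symbols from GENCODE mouse release 21, and all 9 were among the 17148 genes that passed the filter on low counts. The family was chosen by its gene names and with its group levels (TMM-scaled CPM in these 23 libraries) already known. The levels, fold changes and calls of the 9 genes are therefore given below as a description, not as a test.

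The lungs came from male Balb/c mice, with 1 RNA library per mouse. Groups were LPS+nAAT, LPS+oxAAT and LPS+recAAT (5 libraries each), LPS alone (5 libraries) and clean air (3 libraries). Lipopolysaccharide (LPS), a cell wall component of Gram-negative bacteria, was inhaled as an aerosol of 0.21 mg/ml over 10 min on 3 days by all but the air mice, which inhaled clean air for as long. Mice of the 3 AAT groups were injected into the peritoneum with 4 mg/kg of alpha1-antitrypsin (AAT, a plasma inhibitor of neutrophil elastase) 1 h after each exposure, as native (nAAT), oxidized (oxAAT) or recombinant (recAAT) protein. The protocol names saline as the injection without AAT. The experiment ended 6 h after the third dose, and the age of the mice was not given in the sources used here.

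IGF1 and IGF2 are small secreted proteins that act mainly through the tyrosine kinase receptor IGF1R, which signals through the insulin receptor substrates, PI3-kinase and AKT. Most circulating IGF1 is made by the liver under growth hormone. Tissues such as lung also make their own IGFs, and fibroblasts and macrophages are among the known sources. The IGF-binding proteins are secreted too. They hold the ligands with high affinity, prolong their life, carry them or keep them from the receptor, and are opened by proteases. IGFBP7 binds IGFs only weakly.

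Promoter sequences are shown for 3 genes: Igfbp3, the family member whose levels separated the groups most, Igf1, the ligand that differed most, and Igfbp4, the steadiest member. Each is the 250 bases before the RefSeq start site, 5′ to 3′ on the gene's strand (GRCm38.p6), and capitals mark the TATA-like letters found. The Igf1 window lies inside the gene as GENCODE annotates it (start at 87858265), so it precedes an internal start site and not the gene's 5′ end.
Igfbp3, chr11:7213924-7214173, minus strand: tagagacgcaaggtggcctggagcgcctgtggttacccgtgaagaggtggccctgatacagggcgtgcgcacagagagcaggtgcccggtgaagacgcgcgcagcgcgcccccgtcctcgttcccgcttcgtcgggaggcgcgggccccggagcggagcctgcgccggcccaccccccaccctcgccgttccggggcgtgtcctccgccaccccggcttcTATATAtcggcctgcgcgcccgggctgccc
Igf1, chr10:87860861-87861110, plus strand: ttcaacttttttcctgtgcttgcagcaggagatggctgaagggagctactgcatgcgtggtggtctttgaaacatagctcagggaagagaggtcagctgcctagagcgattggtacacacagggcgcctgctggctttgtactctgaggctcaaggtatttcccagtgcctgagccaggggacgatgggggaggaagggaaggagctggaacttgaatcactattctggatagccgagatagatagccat
Igfbp4, chr11:99040994-99041243, plus strand: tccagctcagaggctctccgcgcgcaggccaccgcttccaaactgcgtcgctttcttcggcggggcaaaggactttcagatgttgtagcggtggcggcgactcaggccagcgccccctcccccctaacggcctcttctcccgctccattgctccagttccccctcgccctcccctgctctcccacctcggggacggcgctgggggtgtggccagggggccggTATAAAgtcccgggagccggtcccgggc

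The Igfbp3 promoter was 73.2% G or C, that of Igfbp4 69.2% and that of Igf1 52.8%, against a median of 52.4% over 32851 mouse promoters of this length. TATAAA stood 28 bases before the Igfbp4 start site. It occurred on either strand in 12.4% of all these promoters. TATATA, a motif added after the Igfbp3 sequence was seen and able to overlap TATAAA, began 30 bases before the Igfbp3 start site and occurred in 5.25% of all promoters. No match was found in the Igfbp3 or Igf1 window, on either strand, for GGGCGG (a GC box, in 32.7% of promoters), CACGTG (an E-box, 6.02%), AGAACA (a glucocorticoid receptor half-site, 16.1%) or the NF-kB motif (7.25%). Of the 13 RefSeq promoters of the 9 genes, 1 held the NF-kB motif (Igfbp5), 1 held CACGTG (Igfbp2) and 2 held AGAACA (Igf2 and Igfbp2). A match is a run of letters and no measured binding site.

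In the GENCODE annotation (GRCm38) Igfbp3 lies at chr11:7206086-7213923 on the minus strand, with the next gene of the family, Igfbp1, 3.5 kb away. Igfbp2 (chr1:72824503-72852474, plus strand) and Igfbp5 (chr1:72857932-72874884, minus strand) are also neighbours, 5.5 kb apart. Igf1 lies at chr10:87858265-87937042 (plus strand), Igf2 at chr7:142650766-142666816 (minus strand) and Igf1r at chr7:67952827-68233668 (plus strand). Igfbp4 lies at chr11:99041244-99054392 (plus strand), Igfbp6 at chr15:102144362-102149511 (plus strand) and Igfbp7 at chr5:77349240-77408041 (minus strand). Igfbp7 shares 85 exon bases with Polr2b on the opposite strand. Igf2 shares 98 exon bases with the opposite-strand Igf2os, which had a median of 7 counts per library. The libraries were stranded, but the strand setting of the counting was not given, so counts within these short stretches may be of either gene. Igf2 also shares 3596 exon bases on its own strand with Gm49394, a gene model that is absent from the deposited counts.

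The libraries held 14.8 to 47.9 M gene counts. They fell into 2 sets by the mitochondrial transcript mt-Nd6, whose count, set against the mt-Nd5 count, came to between 0.34% and 1.14% in 15 libraries and between 3.39% and 4.5% in 8. The second set holds all 5 LPS+recAAT libraries and LPS+oxAAT mice 5103, 5104 and 5105, and no LPS, LPS+nAAT or air library. Library set and recAAT treatment therefore cannot be told apart within the LPS+recAAT group, and results are also given from a fit that has library set as a term. Alveolar type 2 markers summed to between 30660 and 41430 CPM (counts scaled to a common library size) in every library, and no marker list for a lung cell type had a gene at 0 in all libraries. Heart muscle markers varied between 37.0 and 660 CPM, and liver markers between 0.788 and 12 CPM.

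All levels are CPM scaled by the TMM method, with SD over the mice of a group. Divided by exon length, so that genes can be compared, the order of the 9 genes was Igfbp7, Igfbp6, Igfbp5, Igfbp2, Igfbp4, Igfbp3, Igf1r, Igf2 and Igf1. Their means of the 5 group means were 346, 184, 101.6, 64.3, 57.3, 20.3, 1.88, 1.85 and 1.24 CPM per kb, in that order. Binding protein transcripts were thus more abundant per length than those of the ligands or the receptor. Over the 23 libraries, ranges per kb did not overlap between Igfbp7 and Igfbp6, between Igfbp4 and Igfbp3, or between Igfbp3 and Igf1r. The ranges of all other neighbours in this order overlapped, and whether those genes differed within libraries was not tested. The counts behind these levels ranged between 127 in the lowest library for Igf1 and for Igf2 and 36158 in the highest for Igfbp5.

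The highest group mean of a gene was 1.99 times the lowest for Igfbp3 and 1.91 times for Igfbp2. It was 1.54 times for Igf1, 1.48 times for Igfbp5 and 1.37 times for Igf2. For Igfbp7, Igf1r, Igfbp6 and Igfbp4 it was at most 1.19 times. The median over the 9 genes was 1.37, and over 17119 tested genes with a value it was 1.26. Spread between mice of 1 group was smallest for Igfbp4 (SD 0.12 on the log2 scale), Igfbp3 (0.16) and Igfbp7 (0.16), and largest for Igf1r and Igfbp2 (0.40 each).

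**Figure D1:**
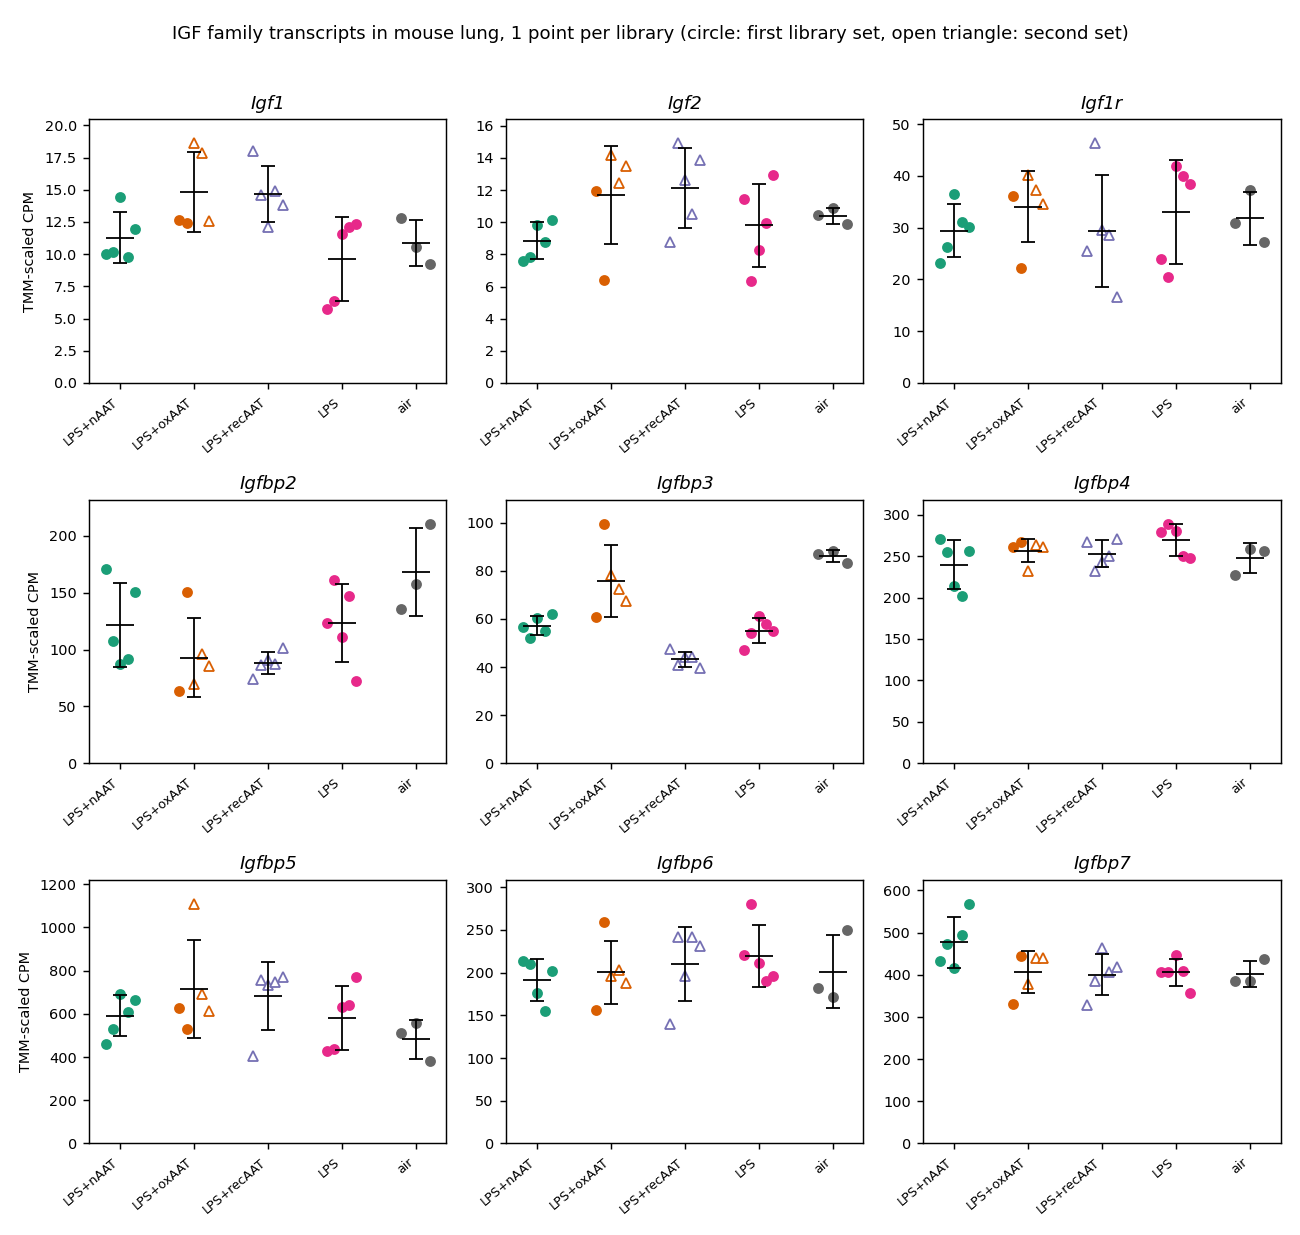
TMM-scaled CPM of the 9 IGF family genes (vertical axes, each starting at 0) in LPS+nAAT, LPS+oxAAT, LPS+recAAT, LPS and air lungs. Each point is 1 library, circles mark the first library set and open triangles the second, and bars show the mean and SD. Igfbp3 lies between 83.3 and 88.4 CPM in air lungs, above every LPS library.

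Igf1 encodes the main postnatal IGF ligand. In LPS+nAAT lungs Igf1 had 10.0, 10.2, 14.5, 9.79 and 11.9 CPM, in LPS+oxAAT lungs 12.7, 12.4, 18.6, 17.8 and 12.6 CPM, and in LPS+recAAT lungs 18, 14.6, 12.1, 14.9 and 13.8 CPM. In LPS lungs it had 5.77, 6.36, 11.6, 12.1 and 12.3 CPM, and in air lungs 12.8, 10.6 and 9.26 CPM. The LPS group was split: mice 1101 and 1102 lay lowest of all 23 libraries, while the other 3 LPS mice lay within the range of air lungs. All 5 LPS+oxAAT libraries lay above all 5 LPS libraries, with 12.39 CPM in the lowest LPS+oxAAT library and 12.34 CPM in the highest LPS library. The other comparisons of Igf1 overlapped between groups.

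The log2 fold change of Igf1 was -0.17 ± 0.22 (SE) in LPS against air lungs, 0.22 ± 0.19 in LPS+nAAT against LPS, 0.61 ± 0.19 in LPS+oxAAT against LPS and 0.60 ± 0.19 in LPS+recAAT against LPS. These last 3 values share the same 5 LPS libraries. Without LPS mouse 1101, LPS+recAAT against LPS was 0.47, and without mouse 1102 it was 0.49. With library set as a term, the log2 fold change was 0.37 ± 0.24 for LPS+oxAAT and 0.22 ± 0.32 for LPS+recAAT. Within LPS+oxAAT, the 2 libraries of the first set had 12.4 and 12.7 CPM and the 3 of the second set had between 12.6 and 18.6 CPM.

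Igf2 encodes the second ligand, an imprinted gene best known from fetal growth. It averaged 8.84 ± 1.15 CPM in LPS+nAAT, 11.7 ± 3.07 in LPS+oxAAT, 12.1 ± 2.50 in LPS+recAAT, 9.80 ± 2.60 in LPS and 10.4 ± 0.503 in air lungs. Its groups overlapped in each of the 4 comparisons. The log2 fold change was 0.25 ± 0.19 in LPS+oxAAT and 0.31 ± 0.19 in LPS+recAAT against LPS. With library set as a term these were -0.11 ± 0.24 for LPS+oxAAT and -0.24 ± 0.31 for LPS+recAAT.

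Igf1r, the gene of the shared signalling receptor, averaged 29.4 ± 5.05 CPM in LPS+nAAT, 34.1 ± 6.89 in LPS+oxAAT, 29.3 ± 10.8 in LPS+recAAT, 33.0 ± 10.0 in LPS and 31.8 ± 5.06 in air lungs. All 4 log2 fold changes were within 1 SE of 0 in the fit without a library set term. With library set as a term, the value was -0.18 ± 0.30 for LPS+oxAAT and -0.53 ± 0.40 for LPS+recAAT against LPS. As for Igf1, LPS mice 1101 and 1102 were low in Igf1r, with 23.9 and 20.5 CPM against 38.5 to 42.0 CPM in the other 3 LPS mice.

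Igfbp3, the gene of the main carrier of IGFs in serum, was the member with the clearest group pattern. It had 56.7, 52.0, 60.4, 55.0 and 62.1 CPM in LPS+nAAT lungs, 60.8, 99.6, 78.2, 72.6 and 67.3 CPM in LPS+oxAAT lungs and 47.4, 40.8, 44.1, 44.1 and 39.7 CPM in LPS+recAAT lungs. LPS lungs had 47.2, 54.2, 61.3, 58.1 and 55.0 CPM, and air lungs had 87.0, 88.4 and 83.3 CPM. Every LPS library lay below every air library. LPS+oxAAT libraries lay above all LPS libraries but for mouse 5101, and LPS+recAAT libraries lay below all LPS libraries but for mouse 6101.

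Igfbp3 thus averaged 55.2 ± 5.26 CPM in LPS lungs and 86.2 ± 2.61 CPM in air lungs, a log2 fold change of -0.64 ± 0.11, or 0.640 times the air level. That value ran between -0.69 and -0.60 when each of the 8 libraries was left out in turn. Against LPS, the log2 fold change was 0.05 ± 0.10 for LPS+nAAT, 0.46 ± 0.10 for LPS+oxAAT and -0.35 ± 0.10 for LPS+recAAT. With library set as a term it was 0.54 ± 0.13 for LPS+oxAAT and -0.21 ± 0.17 for LPS+recAAT. Within the second library set, Igfbp3 lay between 39.7 and 47.4 CPM in the 5 LPS+recAAT libraries and between 67.3 and 78.2 CPM in the 3 LPS+oxAAT libraries. This split was looked at with the values known, and how many other genes separate there was not counted. The part of library set in the Igfbp3 levels was not tested. In whole lung, fewer cells that express a gene and less of its RNA per cell cannot be told apart.

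Igfbp2 encodes a binding protein with an RGD integrin-binding motif. It had 171, 108, 87.1, 91.8 and 151 CPM in LPS+nAAT lungs, 63.4, 150.4, 69.3, 95.9 and 85.7 CPM in LPS+oxAAT lungs and 73.8, 86.5, 91.0, 87.0 and 100.9 CPM in LPS+recAAT lungs. LPS lungs had 124, 161, 111, 147 and 72.6 CPM, and air lungs had 135, 158 and 211 CPM. The lowest mean was in LPS+recAAT (87.8 ± 9.75 CPM) and the highest in air lungs (168 ± 38.7 CPM), but groups overlapped in all 4 comparisons. Its log2 fold change was -0.45 ± 0.26 in LPS against air, -0.02 ± 0.23 in LPS+nAAT, -0.40 ± 0.23 in LPS+oxAAT and -0.49 ± 0.23 in LPS+recAAT against LPS. The LPS+recAAT value was -0.13 ± 0.41 with library set as a term.

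Igfbp5, whose protein binds extracellular matrix, had the highest CPM of the family before division by length. It had 462, 530.0, 690, 609.9 and 664 CPM in LPS+nAAT lungs, 627, 529.6, 1109, 689.9 and 615 CPM in LPS+oxAAT lungs and 403, 758, 734, 747 and 772 CPM in LPS+recAAT lungs. LPS lungs had 427, 438, 630.1, 639 and 769.5 CPM, and air lungs had 509, 557 and 379.6 CPM. Groups overlapped in all 4 comparisons. Its log2 fold change was 0.27 ± 0.23 in LPS against air, 0.02 ± 0.20 in LPS+nAAT, 0.30 ± 0.20 in LPS+oxAAT and 0.23 ± 0.20 in LPS+recAAT against LPS. With library set as a term it was -0.007 ± 0.26 for LPS+oxAAT and -0.24 ± 0.34 for LPS+recAAT, and in the first library set alone it was -0.009 ± 0.22 for LPS+oxAAT.

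The other 3 binding protein genes varied little between groups. Igfbp4, whose protein is cut by the protease PAPP-A to release IGFs, averaged between 240 CPM (LPS+nAAT, SD 29.8) and 269 CPM (LPS, SD 19.1). Igfbp6, whose protein prefers IGF2, averaged between 191 CPM (LPS+nAAT, SD 24.9) and 220 CPM (LPS, SD 36.2). Igfbp7 averaged 477 ± 59.8 CPM in LPS+nAAT lungs and 406 ± 32.2 CPM in LPS lungs, a log2 fold change of 0.23 ± 0.10, with overlapping groups. Across the 4 groups other than LPS+nAAT, the Igfbp7 means lay between 400.3 and 407 CPM.

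**Figure D2:**
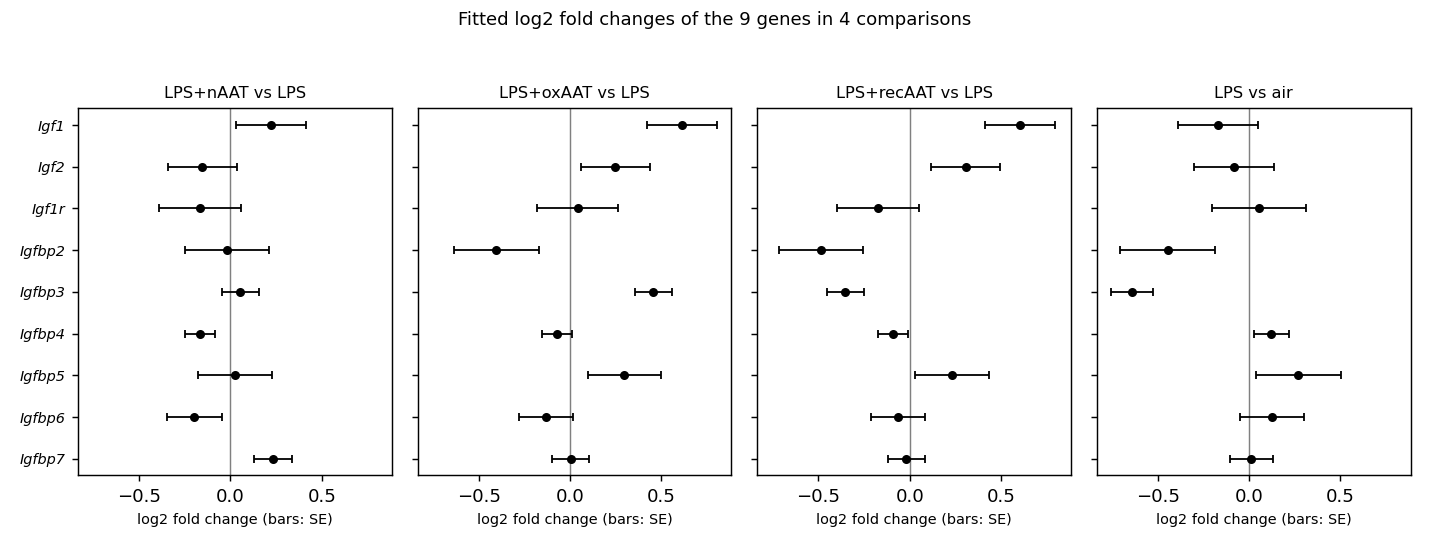
Fitted log2 fold changes (horizontal axis) of the 9 genes, 1 panel for each comparison, with points for the estimate and bars for its SE. Igfbp3 lies left of 0 in LPS vs air (-0.64) and LPS+recAAT vs LPS (-0.35) and right of 0 in LPS+oxAAT vs LPS (0.46).

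At an adjusted p under 0.05 over all genes in edgeR's quasi-likelihood test, 1 of the 9 genes (Igfbp3) was called in LPS against air, where 4.39% of all tested genes were called. None of the 9 was called in LPS+nAAT against LPS, where 0.595% of genes were called. At an unadjusted p under 0.05 (edgeR) there was 1 (Igfbp7), with 2528 of all 17148 genes. DESeq2 called 0 of the 9 there, with 436 of 15163 genes called. In LPS+oxAAT against LPS 1 was called (Igfbp3), with 4.71% of all genes called. DESeq2 called 2 of the 9 there (Igf1 and Igfbp3), with 1246 of 17725 genes called. In LPS+recAAT against LPS 2 were called (Igf1 and Igfbp3), with 8.49% of all genes called. Since group levels were known when the genes were chosen, these counts are a description.

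The groups of 1 gene did not overlap in LPS against air (Igfbp3; 11.3% of all tested genes) and of 1 in LPS+oxAAT against LPS (Igf1; 2.5%). There was no such gene in LPS+nAAT against LPS (3.04%) or LPS+recAAT against LPS (7.46%). The median absolute log2 fold change of the 9 genes was 0.13 in LPS against air, against 0.17 over all genes. For LPS+nAAT, LPS+oxAAT and LPS+recAAT against LPS it was 0.17, 0.25 and 0.23, against 0.14, 0.16 and 0.17 over all genes.

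Some calls of members were lost in fits with fewer libraries or with library set as a term, in most cases at a similar log2 fold change. How often a call was made is a description too, since the group levels were known when the genes were chosen. The Igfbp3 call in LPS against air was made under all 8 alternative settings and in all 8 fits that left out 1 library. Its LPS+oxAAT call was made in all 10 fits that left out 1 library. It was lost with library set as a term (log2 fold change 0.54) and in the first library set alone (0.54). A fit of only those 2 groups also lost it, at 0.46. The 0.54 values rest on the 2 LPS+oxAAT libraries of the first set, at 60.8 and 99.6 CPM. The lower of these lay within the LPS range of 47.2 to 61.3 CPM. The Igfbp3 call in LPS+recAAT was lost with library set as a term, where the log2 fold change was -0.21. It was also lost without any one of LPS mice 1102, 1103 and 1104 or LPS+recAAT mice 6102, 6103 and 6105, and over all 10 fits that left out 1 library the log2 fold change lay between -0.40 and -0.31. The Igf1 call in LPS+recAAT was lost without any one of LPS mice 1101 and 1102 or LPS+recAAT mice 6101, 6102, 6104 and 6105, with a log2 fold change between 0.47 and 0.70 over all 10 such fits. It was also lost with no filter on low counts (log2 fold change 0.60), in a fit of only the 2 groups (0.61) and with library set as a term (0.22).

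Within groups, 8 of the 9 genes fell into 2 sets that varied together from mouse to mouse, and Igfbp3 was in neither. Pearson's r of deviations from the group means, over 23 libraries on the scale of log2(CPM + 0.5), was between 0.25 and 0.64 among Igf1, Igf2, Igf1r and Igfbp5. It was between 0.16 and 0.68 among Igfbp2, Igfbp4, Igfbp6 and Igfbp7, the highest being Igfbp2 with Igfbp6. Across the 2 sets, 15 of 16 pairs were below 0, the lowest being Igf1r with Igfbp4 (-0.59), and the exception was Igfbp5 with Igfbp7 (0.07). The 2 sets were drawn after the values were seen. The first set holds the 4 genes with the longest exon models (5.723 to 16.79 kb, against 1.112 to 4.416 kb). Deviations in LPS+oxAAT also hold any difference between the library sets. There, the means of Igf1, Igf2, Igf1r and Igfbp5 were higher in the second library set than in the first. Those of Igfbp2, Igfbp4 and Igfbp6 were lower, and that of Igfbp7 was higher. The parts of exon length and library set in the pattern of r were not tested. All values come from the same 23 libraries and share their depth and cell makeup. Igfbp3 (3.13 kb) had r of 0.39 with Igf1, 0.34 with Igfbp2 and -0.52 with Igf2.

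**Figure D3:**
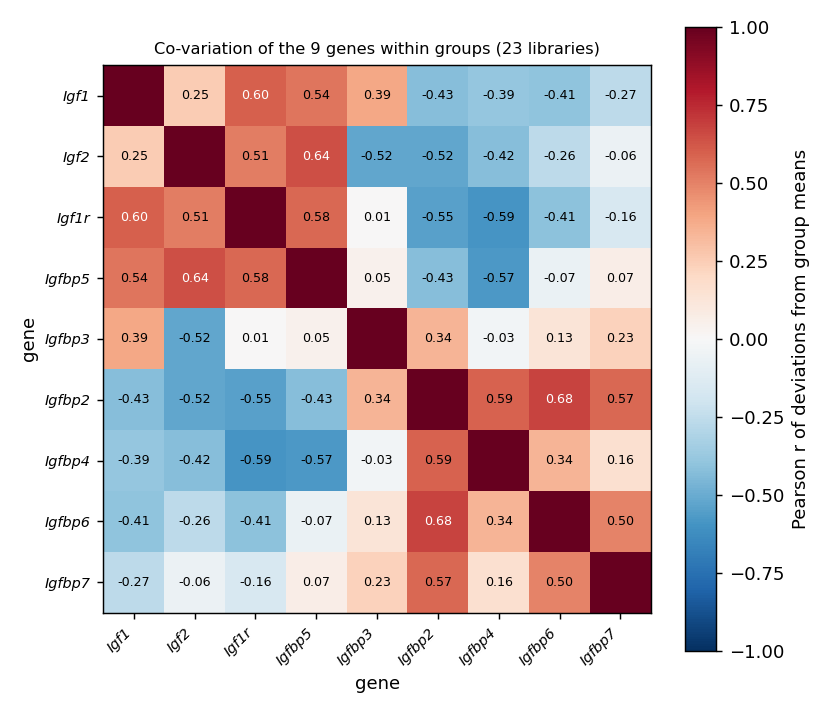
Pearson's r between pairs of the 9 genes after subtracting each group's mean, over 23 libraries (colour and printed value, red positive, blue negative). Igf1, Igf2, Igf1r and Igfbp5 form a red block, Igfbp2, Igfbp4, Igfbp6 and Igfbp7 another, and the values between the blocks are mostly below 0.

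The tested genes with the most similar pattern over the 23 libraries differed by member. Igfbp3 was nearest to Dbp, the gene of a clock-controlled transcription factor (r = 0.85), to Nr1d1, the gene of the clock repressor REV-ERB alpha (r = 0.79), and to Irs1 (r = 0.76). Within groups these values were 0.45, 0.30 and 0.52. Igf1 was nearest to Cpne8 (0.91), Gpm6b (0.88) and Osbpl8 (0.87), and Igf2 to Jak2 (0.81), Rdx (0.80) and Ppp1r3a (0.80). Igf1r was nearest to Ptch1, the Hedgehog receptor gene (0.94), Ep300 (0.93) and Dock4 (0.93). Igfbp2 was nearest to Il17re, Cryab and Cytl1 (0.91 each).

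Igfbp5 was nearest to Sulf1 (0.93), Lrrn4 (0.93) and Bnc1 (0.88), of which Lrrn4 is on the list of mesothelium markers used here. Igfbp5 followed the summed mesothelium markers within groups with r = 0.77. Those 6 markers, none at 0 in all libraries, summed to between 288 and 450 CPM in LPS lungs and between 225 and 249 CPM in air lungs, and 1 of the 6 was called higher in LPS. Their part in the Igfbp5 levels was not tested. Igfbp4 was nearest to Plvap (0.82), a gene of endothelial diaphragms, Igfbp6 to Rprml (0.81) and Igfbp7 to Atp5a1 (0.84). Within groups, Igfbp4 had r = 0.86 with Plvap and -0.21 with the summed markers of endothelium.

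Igfbp2, Igfbp6 and Igfbp7 followed the summed alveolar type 1 markers within groups, with r of 0.74, 0.70 and 0.70. Values for the summed alveolar type 2 markers were similar, at 0.68, 0.65 and 0.55, and Igfbp7 had 0.57 with markers of monocytes and interstitial macrophages. The 7 alveolar type 1 markers summed to between 5118 and 6716 CPM in LPS lungs and between 5982 and 7122 CPM in air lungs, and none was called in any of the 4 comparisons. Beside the lower Igfbp3 of LPS lungs, markers of monocytes and interstitial macrophages summed to between 204.9 and 239 CPM in LPS lungs and between 135 and 173 CPM in air lungs, with 4 of 7 called higher and none at 0. Endothelial markers summed to between 3422 and 4482 CPM in LPS lungs and between 3199 and 4038 CPM in air lungs, with 0 of 7 called. In LPS+recAAT lungs the endothelial sum was between 3095 and 3520 CPM, again with 0 of 7 called against LPS (edgeR). Group levels of 5 liver markers, none at 0 in all libraries, moved with those of Igfbp3 in LPS+oxAAT, LPS and air lungs. They summed to between 1.75 and 12 CPM in LPS+oxAAT, between 1.04 and 3.17 CPM in LPS and between 1.335 and 11.7 CPM in air lungs. Of the 5, 1 was called lower in LPS than in air (median log2 fold change of the list -1.67) and 1 was called higher in LPS+oxAAT than in LPS (1.78). The list did not move with Igfbp3 in the other AAT groups. In LPS+nAAT against LPS the median log2 fold change of the list was -1.34, where Igfbp3 had 0.05. In LPS+recAAT against LPS the median was -0.05, where Igfbp3 had -0.35. Within groups, Igfbp3 had r = -0.22 with the summed liver markers. The part of these cell types and of liver RNA in the Igfbp3 levels was not tested.

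The rest of the pathway was read from a list of 44 other IGF and insulin axis genes, and 39 of them were tested. These genes were not used to choose the 9, but the list itself was chosen with earlier results of these data known. In LPS against air, 1 of 39 was called, Irs1, which encodes an adaptor that passes on the signal of the IGF1 and insulin receptors. Irs1 had 26.1, 30.5, 33.3, 36.4 and 31.0 CPM in LPS lungs and 48.2, 46.7 and 42.9 CPM in air lungs, with no overlap. It fell to a mean of 31.5 ± 3.78 CPM in LPS lungs, against 45.9 ± 2.74 CPM in air lungs, a log2 fold change of -0.55 ± 0.12 (edgeR, adjusted p = 0.00872). Without air mouse 2101 the log2 fold change was -0.50 and the adjusted p was 0.0576 (edgeR). The share called over all genes was 4.39%, and the median log2 fold change of the 39 genes was -0.04, against -0.01 over all genes.

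Other genes of the list did not pass in LPS against air. Ghr, the growth hormone receptor gene, averaged 90.4 ± 17.5 CPM in LPS and 120.1 ± 3.29 CPM in air lungs (log2 fold change -0.41 ± 0.13, edgeR adjusted p = 0.0654). Stc2, the gene of an inhibitor of PAPP-A, averaged 2.57 ± 0.632 CPM in LPS and 4.27 ± 1.01 CPM in air lungs (-0.74 ± 0.22, edgeR adjusted p = 0.0567). Foxo3, a transcription factor gene held in check by AKT, averaged 119.0 ± 13.6 CPM in LPS and 81.6 ± 6.57 CPM in air lungs (0.54 ± 0.18, edgeR adjusted p = 0.0887). With Irs1 and Cish, these 3 made up the 5 genes that DESeq2 called.

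In LPS+nAAT against LPS, 0 of the 39 genes were called by edgeR and DESeq2 called 0. At an unadjusted p under 0.05 (edgeR) there were 7, with 2528 of all 17148 genes. In LPS+oxAAT against LPS 0 of the 39 were called by edgeR and 7 had an unadjusted p under 0.05, with 3467 of all 17148 genes. DESeq2 called 1 of the 39, with 1246 of 17725 genes called. This was Akt1, the gene of a kinase downstream of PI3-kinase. Akt1 averaged 214.8 ± 12.5 CPM in LPS+oxAAT lungs and 254 ± 20.4 CPM in LPS lungs (log2 fold change -0.24 ± 0.07, edgeR adjusted p = 0.0537). In LPS+recAAT against LPS DESeq2 called 3 of the 39, Akt1, Grb14 and Rps6kb1, with 1935 of 17213 genes called over all. Akt1 averaged 221.5 ± 12.7 CPM in LPS+recAAT lungs (-0.20 ± 0.07 against LPS, edgeR adjusted p = 0.0913). Rps6kb1, the gene of the S6 kinase downstream of mTORC1, averaged 54.7 ± 4.39 CPM in LPS+recAAT lungs and 43.7 ± 9.53 CPM in LPS lungs (0.32 ± 0.11, edgeR adjusted p = 0.0655).

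Grb14, which encodes an adaptor that inhibits the insulin receptor, fell in LPS+recAAT lungs, as 1 of 39 axis genes, with 8.49% of all genes called. It had 39.6, 38.6, 46.0, 40.3 and 46.4 CPM in LPS+recAAT lungs and 52.8, 58.7, 51.2, 49.5 and 51.0 CPM in LPS lungs, with no overlap. The log2 fold change was -0.32 ± 0.09 (edgeR adjusted p = 0.0339) and -0.14 ± 0.16 with library set as a term (edgeR adjusted p = 0.893). The call was also lost without any one of LPS mice 1101 and 1102 or LPS+recAAT mice 6101, 6102 and 6104, at log2 fold changes between -0.31 and -0.28, and with no filter on low counts (-0.32, edgeR adjusted p = 0.0527). Across the 39 genes, the median log2 fold change was 0.01 in LPS+nAAT, 0.07 in LPS+oxAAT and 0.04 in LPS+recAAT against LPS, and over all genes it lay between -0.014 and 0.001.

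**Figure D4:**
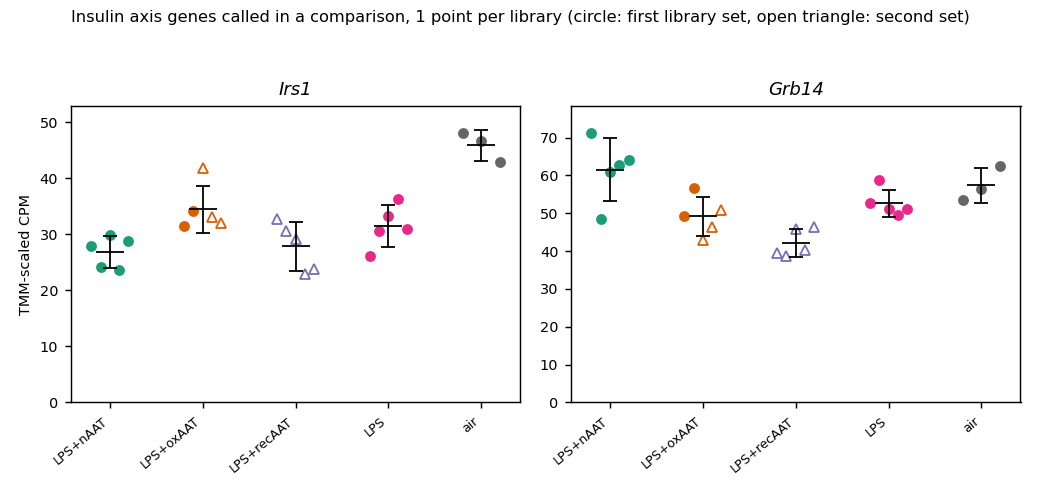
TMM-scaled CPM of Irs1 and Grb14 (vertical axes, each starting at 0), 1 point per library, with mean and SD. Circles mark the first library set and open triangles the second. Irs1 lies between 42.9 and 48.2 CPM in air lungs and at or below 36.4 CPM in all LPS libraries, and Grb14 in LPS+recAAT lungs lies below all LPS libraries.

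**Figure D5:**
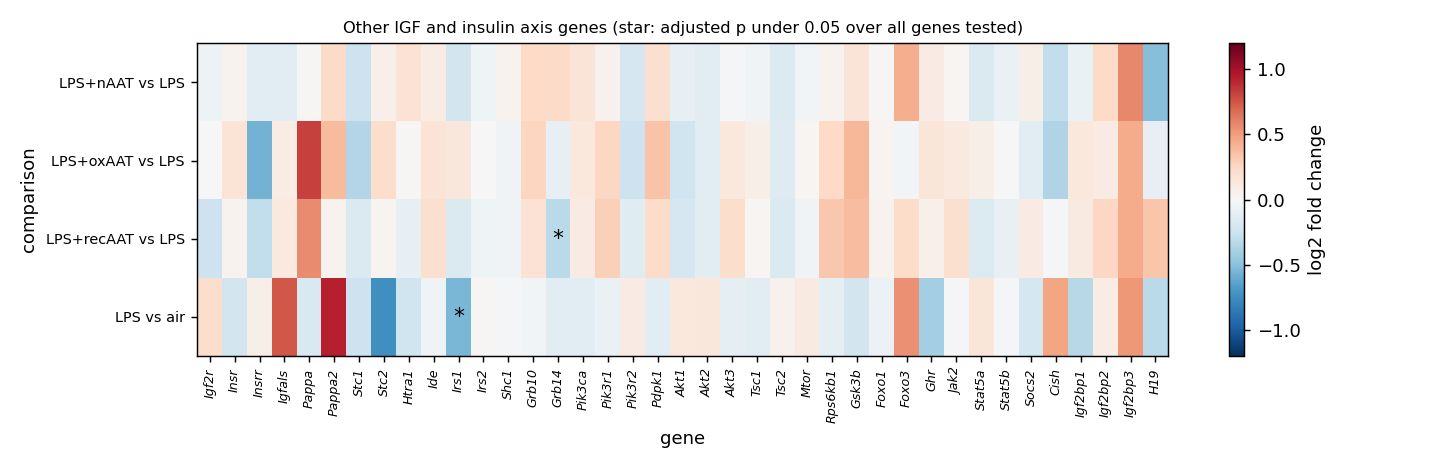
Log2 fold changes (colour) of the tested IGF and insulin axis genes (columns) in 4 comparisons (rows), with a star at an adjusted p under 0.05. The 2 stars are Irs1 in LPS vs air and Grb14 in LPS+recAAT vs LPS.

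Among other receptors and carriers no difference was called (edgeR). Igf2r, whose product clears IGF2, averaged 92.7 ± 1.65 CPM in LPS+nAAT, 96.3 ± 7.58 in LPS+oxAAT, 81.5 ± 13.4 in LPS+recAAT, 96.5 ± 8.47 in LPS and 83.3 ± 23.8 in air lungs. Insr, the insulin receptor gene, averaged between 79.0 CPM (LPS, SD 11.96) and 92.1 CPM (air, SD 13.6). Igfals, whose product stabilizes the serum complex of IGF and IGFBP3, stayed at or below 1.01 CPM in every library. Igfbp1 had 0 counts in all 23 libraries, which allows up to 0.203 CPM in the shallowest library and 0.0627 CPM in the deepest, for counting error only.

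Of 10 further genes whose proteins carry an IGFBP-like domain, a list also chosen with earlier results of these data known, 9 were tested. Ccn1, the gene of a matrix protein that binds integrins, was the single one called, in LPS+oxAAT against LPS, where 4.71% of all genes were called. It had 116.5, 187.5, 135, 147 and 102 CPM in LPS+oxAAT lungs and 73.6, 91.5, 77.4, 91.7 and 98.2 CPM in LPS lungs, with no overlap. The means were 138 ± 32.8 CPM and 86.5 ± 10.5 CPM, and the log2 fold change was 0.67 ± 0.15 (edgeR adjusted p = 0.0124). With library set as a term it was 0.82 ± 0.19 (edgeR adjusted p = 0.149), in the first library set alone 0.81 ± 0.17 (edgeR adjusted p = 0.128), and in a fit of only those 2 groups the edgeR adjusted p was 0.0773. In LPS against air and LPS+nAAT against LPS 0 of the 9 were called by edgeR and by DESeq2. In each, 1 had an unadjusted p under 0.05 (edgeR), with 3097 and 2528 of all 17148 genes. In LPS+recAAT against LPS 0 were called by edgeR and 2 had an unadjusted p under 0.05, with 4056 of all 17148 genes. DESeq2 called 1 of the 9 (Ccn5), with 1935 of 17213 genes called. The median log2 fold change of the 9 genes with this domain was -0.27 in LPS against air, and -0.09, 0.03 and -0.17 in LPS+nAAT, LPS+oxAAT and LPS+recAAT against LPS.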

How the data were processed

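RNA-seq was run on lungs of 23 mice in 5 groups taken from the sample titles. The deposited values are raw read counts per Ensembl gene, with no normalization. Per the labels' protocols the libraries were stranded and poly(A)-selected. The submitters' processing notes name HTSeq 0.11.1, STAR 2.4.0.1, Trimmomatic (0.36 and 0.38) and FastQC 0.11.8 and the build GRCm38. For annotation release and strand setting, nothing is given in the sources used here. The 5 summary lines were left out. They tally reads on no feature (6.79% to 13.13%), ambiguous reads (up to 1.39%) and reads aligned to several places (4.09% to 6.08%). GENCODE release 21 named 40340 of 41388 IDs.

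Counts of all 23 libraries were fitted in 1 model with edgeR 4.0.16 in R 4.3.3 (TMM factors 0.978 to 1.028, filterByExpr by group, robust quasi-likelihood F test, two-sided, Benjamini-Hochberg over 17148 genes, calls at an adjusted p under 0.05). No covariate was used. CPM are TMM-scaled. The SE of a log2 fold change was derived from the F statistic. The test was run first on simulated counts. The p-values set group differences against the spread between libraries within groups, estimated over all groups. In LPS+oxAAT this spread also holds any difference between the library sets. The depth of 14.8 to 47.9 M counts adds counting error, most for Igf1, Igf2 and Igfals. DESeq2 1.42.0 was an alternative.

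The 9 genes, the gene lists, the marker lists and the split by library set were chosen with earlier results of these data known. All 9 genes are given. Of the axis list and the list of IGFBP-like domains, each called gene is named, and Igf2r, Insr, Igfbp1 and Igfals are always given. Of the axis list, 1 gene is not reported here and is in no count of that list. Akt1, Rps6kb1, Ghr, Stc2, Foxo3, Cish and Ccn5 are outside that rule and were named because DESeq2 called them. For each of the 9, the genes of highest r are described as such. Promoters are from RefSeq (GRCm38.p6), where all 9 genes matched. The last digits of the mouse numbers are shared between groups; deviations of same-numbered mice correlated between -0.22 and 0.35, so the numbers were not taken to pair the mice.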

Additional observations from a re-analysis of the deposited data

Results flagged for a closer look

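In 5 of 60 sets of values (1 gene in 1 group of 5 mice), 1 mouse lay far from the other 4 by the test for a single outlying value, which chance alone trips in about 1 in 20 sets. Igf2 had 6.42 CPM in LPS+oxAAT mouse 5102, against 11.96 to 14.2 CPM in the other 4 mice of that group. Mouse 5102 belongs to the first library set. LPS+oxAAT mouse 5103, of the second set, stood apart for 3 genes: Igfbp5 at 1109 CPM, against 529.6 to 689.9 CPM in the other 4 mice, Igfbp4 at 232 CPM, against 260.6 to 266.9 CPM, and Irs1 at 41.8 CPM, against 31.5 to 34.2 CPM. Igfbp5 had 403 CPM in LPS+recAAT mouse 6101, against 734 to 772 CPM in the other 4 mice of that group.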

How the results depend on the processing

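Normalization by DESeq2 size factors or library totals moved no group mean of the 9 genes by more than its SD, and the log2 fold changes of the 9 genes moved by over the pooled within-group SD (log2) of the 2 groups compared under 1 setting only, library set as a term, for Igf2, Igfbp2, Igfbp3 and Igfbp5 in LPS+recAAT. That of Igf1 was 0.22 there, against 0.60 without the term, which is within that SD. Counts of called genes depended on the settings. In LPS against air 753 genes were called, 354 in a fit of only those 2 groups, and 391 to 904 without 1 library, the lowest counts being 473, 391 and 420 without air mice 2101, 2102 and 2105. In LPS+nAAT against LPS it was 102, with 50 under no filter, 196 with library set as a term, 34 in the first library set alone, 16 with only 2 groups, 436 by DESeq2 and 20 to 144 without 1 library. It was 42, 30 and 20 without LPS mice 1101, 1102 and 1104, and 32 and 27 without LPS+nAAT mice 4103 and 4104. In LPS+oxAAT against LPS it was 808, with 6 under the set term, 13 in the first set alone, 15 with only 2 groups, 1246 by DESeq2 and 167 to 1881 without 1 library. It was 388, 234, 305 and 1552 without LPS mice 1101, 1102, 1104 and 1105, and 1881, 167, 342 and 416 without LPS+oxAAT mice 5102, 5103, 5104 and 5105. In LPS+recAAT against LPS it was 1456, with 0 under the set term and 865 to 2316 without 1 library. It was 963, 923, 865 and 2316 without LPS mice 1101, 1102, 1104 and 1105. The set term rests on LPS+oxAAT alone, on its 3 libraries of the second set against its 2 of the first. LPS+recAAT is then judged through that difference. Fits of 2 groups hold fewer samples. Other causes were not tested.

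Of the 39 axis genes, 1 was called in LPS against air. It was 2 with library totals, the set term, the first set alone or only 2 groups, 5 by DESeq2, and 1 to 3 without 1 library (3 without LPS mouse 1103, 2 without mouse 1104 or 1105). In LPS+nAAT it was 0 throughout. In LPS+oxAAT it was 0 but for 1 by DESeq2 and, over 0 to 3 without 1 library, 2 without LPS mouse 1105 and 3 without LPS+oxAAT mouse 5102. In LPS+recAAT the 1 call became 0 with no filter or the set term, 3 by DESeq2, and 0 to 2 without 1 library (2 without LPS mouse 1105, and 0 without LPS mouse 1101 or 1102 or LPS+recAAT mouse 6101, 6102 or 6104). With mice of the same last digit as a replicate block, 1364, 248, 1167 and 1850 genes were called in LPS against air and in LPS+nAAT, LPS+oxAAT and LPS+recAAT against LPS, with 3 axis genes in the first. The first library set alone gives no LPS+recAAT value.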
